A study of Mus musculus with 8 samples.

Results

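Natural killer (NK) cells of the mouse heart were examined in 4 single-cell RNA libraries, and 566 of the 27053 cells kept after quality filters were NK cells. A cell was kept with 200 to 6000 detected genes, 500 to 30000 unique molecular identifiers (UMIs, each 1 captured RNA molecule) and a mitochondrial share below 15%. A kept cell was called an NK cell when its UMIs of Ncr1, Klrb1c and Klre1 summed to 2 or more. It also had to hold no UMI of Cd3d, Cd3e or Cd3g (the T cell receptor complex), none of Cd79a (the B cell receptor complex) and fewer than 5 UMIs of the C1q genes of macrophages. The members were thus chosen by the UMIs of these genes, so the levels of these genes are a description here and nothing rests on them.

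The hearts came from 8-week-old male wild-type C57BL/6J mice that had a sham operation or transverse aortic constriction (TAC), in which a suture narrows the aortic arch and loads the left ventricle with pressure. The TAC hearts were taken at 2 weeks (TAC-2w), 4 weeks (TAC-4w) and 6 weeks (TAC-6w). Each of the 4 conditions had 1 single-cell library and 1 spatial section, so no difference between conditions could be tested against replicates. The number of hearts behind a library was not given in the sources used here. All intervals below are 95% intervals that cover counting error only, and not the spread between animals. By the labels, the TAC-6w and sham libraries shared a batch, while TAC-2w and TAC-4w each had a batch of their own. For the last 2 libraries, batch and time after surgery cannot be told apart.

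NK cells are innate lymphocytes that kill infected, stressed or transformed cells without a rearranged antigen receptor. Activating receptors such as NKp46 (encoded by Ncr1) and NKG2D (Klrk1) are set against inhibitory receptors that read MHC class I. In the mouse, many of these belong to the Ly49 family (the Klra genes), of which a given NK cell expresses a subset. Killing uses granules that hold perforin (Prf1) and granzymes, and the cells also release interferon gamma (Ifng) and chemokines. Their growth depends on interleukin 15, and T-bet (Tbx21) and Eomes set their maturation.

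The name was checked against genes that the rule did not use. Gzma, the granule protease granzyme A, was detected in 95.8% of the NK cells of the sham library, 88.2% in TAC-2w, 98.5% in TAC-4w and 65.9% in TAC-6w. In the B cells of the same libraries it was detected in 1.62%, 0.637%, 3.53% and 0% of cells. B cells were cells with Cd79a and at least 2 UMIs of Cd79a, Cd79b and Ms4a1, with none of the Cd3 or NK marker genes. Prf1 was found in 92.2%, 91.2%, 96.6% and 68.3% of the NK cells. RNA of both proteins of the killing granule was therefore found in most of these cells, and least often in TAC-6w. The name is less certain for the TAC-6w cells without Gzma, which are described below. The T cell markers Cd4, Cd8b1 and Cd6 had no UMI in the NK cells of any library, and Cd8a and Cd5 had UMIs only in TAC-4w. The T cell receptor constant gene Trac was detected in 4.82%, 2.94%, 6.46% and 2.44% of the NK cells. Other genes of the list were common: Trbc1, of the receptor's beta chain, was detected in 59.0%, 67.6%, 56.9% and 41.5% of them and Trbc2 in 43.4%, 26.5%, 30.5% and 31.7%. Trbc1 stood at 215, 317, 226 and 242 CPM in NK cells and 778, 780, 1008 and 395 CPM in T cells. Cd28, a costimulatory receptor, stood at 77.1, 123, 34.4 and 86.5 CPM in NK cells. The whole T cell marker list summed to 830, 1131, 965 and 986 CPM (counts per 1000000 UMIs of the NK cells) in sham and at TAC-2w, TAC-4w and TAC-6w. Its most abundant gene was Cd2 in all 4 libraries, an adhesion molecule that NK cells also carry.

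Genes outside the rule with at least 100 UMIs in the pooled NK cells were ranked by their level over all other kept cells. The highest 20 were led by Klra4, at 600 times the level of the rest. Khdc1a followed at 550 times, Klra8 at 337, Prf1 at 275, Klra3 at 262, Gzma at 254 and Klri2 at 235. The same 20 held Eomes at 221 times, the granule gene Nkg7 at 123 and the interleukin 12 receptor subunit Il12rb2 at 119. Of these 20, 4 were Ly49 receptors besides Klra4 (Klra8, Klra3, Klra7 and Klra9).

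The promoters of these genes are shown because the genes mark 1 cell type together, as 300 bases from 250 before to 50 after the RefSeq start site (GRCm38.p6), read 5′ to 3′ on the gene's strand. Capitals mark 3 short motifs searched on both strands: GTGTGA (T-box factors such as T-bet and Eomes), TGTGGT (RUNX) and AGGAAG (ETS). Over all 32851 promoter windows of that length, 14.5% held the T-box letters, 16.8% the RUNX letters and 35.4% the ETS letters, so each is common and a match is a description only. Ncr1 lies at chr7:4337465-4337764 (+), Gzma at chr13:113100932-113101231 (-) and Prf1 at chr10:61297586-61297885 (+). Klra4 lies at chr6:130067222-130067521 (-) and Klra8 at chr6:130129849-130130148 (-). The Ncr1 and Klra8 windows are each 1 of 2 RefSeq windows of the gene.
Ncr1: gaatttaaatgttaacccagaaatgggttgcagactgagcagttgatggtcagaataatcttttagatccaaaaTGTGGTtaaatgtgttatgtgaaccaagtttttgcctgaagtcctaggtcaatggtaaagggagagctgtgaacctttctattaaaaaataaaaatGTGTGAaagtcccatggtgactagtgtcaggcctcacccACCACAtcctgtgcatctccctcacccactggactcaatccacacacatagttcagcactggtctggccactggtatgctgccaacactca
Gzma: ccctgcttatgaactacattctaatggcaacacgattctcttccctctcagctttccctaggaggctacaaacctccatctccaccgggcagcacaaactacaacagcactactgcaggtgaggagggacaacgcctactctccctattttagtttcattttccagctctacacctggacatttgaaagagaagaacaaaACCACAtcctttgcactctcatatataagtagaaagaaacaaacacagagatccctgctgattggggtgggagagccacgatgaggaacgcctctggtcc
Prf1: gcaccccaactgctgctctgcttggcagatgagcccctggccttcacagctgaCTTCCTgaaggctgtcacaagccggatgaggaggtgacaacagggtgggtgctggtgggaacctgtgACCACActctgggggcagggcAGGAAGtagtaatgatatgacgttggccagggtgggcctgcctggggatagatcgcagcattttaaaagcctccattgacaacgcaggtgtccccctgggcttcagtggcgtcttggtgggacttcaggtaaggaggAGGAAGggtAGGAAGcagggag
Klra4: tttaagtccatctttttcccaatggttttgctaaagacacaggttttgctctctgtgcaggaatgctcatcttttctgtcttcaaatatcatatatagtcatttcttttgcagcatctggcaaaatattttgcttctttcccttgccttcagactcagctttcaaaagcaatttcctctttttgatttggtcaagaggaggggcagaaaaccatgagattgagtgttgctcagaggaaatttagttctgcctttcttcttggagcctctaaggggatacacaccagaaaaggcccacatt
Klra8: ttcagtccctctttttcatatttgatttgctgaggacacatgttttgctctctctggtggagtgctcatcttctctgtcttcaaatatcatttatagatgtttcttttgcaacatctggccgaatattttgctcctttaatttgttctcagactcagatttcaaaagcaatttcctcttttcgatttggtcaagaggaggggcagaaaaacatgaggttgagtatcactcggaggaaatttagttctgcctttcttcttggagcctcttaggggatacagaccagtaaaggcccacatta
The RUNX letters stood in the windows of Ncr1, Gzma and Prf1, the T-box letters of these 5 windows stood only in Ncr1, and Prf1 also held the ETS letters 4 times. Neither Ly49 window shown held any of the 3 motifs. Among Ly49 windows not shown, that of Klra1 held all 3 motifs and 1 of the 2 of Klra7 held the ETS letters. At the best ungapped offset over the windows of both genes, Klra4 and Klra8 were identical at 86.3% of the 300 bases. The genes of this family are also alike in their coding parts, so reads of 1 Ly49 gene may have been counted to another or dropped, and the levels of single Ly49 genes are uncertain.

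The 4 libraries differed in depth before any result. They held 10275 barcodes and 86671674 UMIs in sham, 7924 and 78587992 in TAC-2w, 8420 and 48278486 in TAC-4w, and 5854 and 28793316 in TAC-6w. The median NK cell had 4668 UMIs in sham, 5477.5 in TAC-2w, 4584 in TAC-4w and 2480 in TAC-6w, with 1613.5, 1818.5, 1765 and 1018 genes. The TAC-6w NK cells were thus the shallowest, and their summed UMIs came to 115569 against 1011326 in sham, 227164 in TAC-2w and 1686751 in TAC-4w. Between 9 and 21 kept barcodes were shared by each pair of libraries, and none of them was an NK cell.

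The TAC-6w cells also lay nearer to the limit of the rule. The 3 rule genes summed to a median of 12 UMIs per NK cell in sham, 14.5 in TAC-2w, 16 in TAC-4w and 4 in TAC-6w. Cells just inside the limit, with 2 UMIs, numbered 6, 1, 6 and 7, and cells just outside, with 1 UMI, numbered 30, 16, 25 and 7. Of those just outside, 10% held Gzma in sham, 6.25% in TAC-2w, none in TAC-4w and 28.6% in TAC-6w. Of those just inside, 83.3% did so in sham and in TAC-4w, the single cell did so in TAC-2w, and 14.3% did so in TAC-6w. The Cd3 condition removed 41 of 216 cells with 2 or more marker UMIs in sham, 26 of 63 in TAC-2w, 53 of 425 in TAC-4w and 11 of 55 in TAC-6w.

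The NK cell share of the kept cells was lower than in sham at TAC-2w and TAC-6w and higher at TAC-4w. In sham, 166 of 8228 cells were NK cells, 2.02% (exact Clopper-Pearson interval 1.72 to 2.34). In TAC-2w it was 34 of 6501, 0.523% (0.362 to 0.730), which was 0.259 times the sham share (exact conditional interval 0.174 to 0.377). In TAC-4w it was 325 of 6747, 4.82% (4.32 to 5.36), which was 2.39 times sham (1.97 to 2.90). In TAC-6w it was 41 of 5577, 0.735% (0.528 to 0.996), which was 0.364 times sham (0.252 to 0.516). TAC-6w and sham are the pair of the same batch.

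The order of the libraries depended on what the NK cells were counted against. Cells with a UMI of Ptprc, the leukocyte antigen CD45, made up 31.2% of kept cells in sham, 35.2% in TAC-2w, 71.4% in TAC-4w and 22.9% in TAC-6w. Of those leukocytes, NK cells were 6.43% in sham, 1.48% in TAC-2w, 6.68% in TAC-4w and 2.98% in TAC-6w. The TAC-4w share was then 1.04 times the sham share (0.860 to 1.26), against 0.231 in TAC-2w (0.155 to 0.336) and 0.463 in TAC-6w (0.317 to 0.662). The higher TAC-4w share of all cells therefore went with a higher share of leukocytes as a whole, and its difference from sham among leukocytes was not detectable at this depth. How cells were enriched or lost in each preparation was not tested.

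Against the other lymphocytes the shares took a further order. T cells (at least 2 UMIs of the Cd3 genes, none of the NK markers) numbered 130, 124, 343 and 47 in the same order of libraries, and B cells 247, 157, 2462 and 876. NK cells were 56.1% of NK and T cells together in sham, 21.5% in TAC-2w, 48.7% in TAC-4w and 46.6% in TAC-6w. Relative to sham this was 0.384 in TAC-2w (0.257 to 0.558), 0.868 in TAC-4w (0.717 to 1.05) and 0.831 in TAC-6w (0.575 to 1.18). The low NK share of TAC-2w was thus seen under each of these denominators, while that of TAC-6w was not told from sham by counting error once T cells were the reference. With B cells added, NK cells made up 30.6% in sham and 10.8%, 10.4% and 4.25% in TAC-2w, TAC-4w and TAC-6w, where B cells were 36.5% of the kept cells in TAC-4w and 15.7% in TAC-6w against 3.00% in sham.

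**Figure D1:**
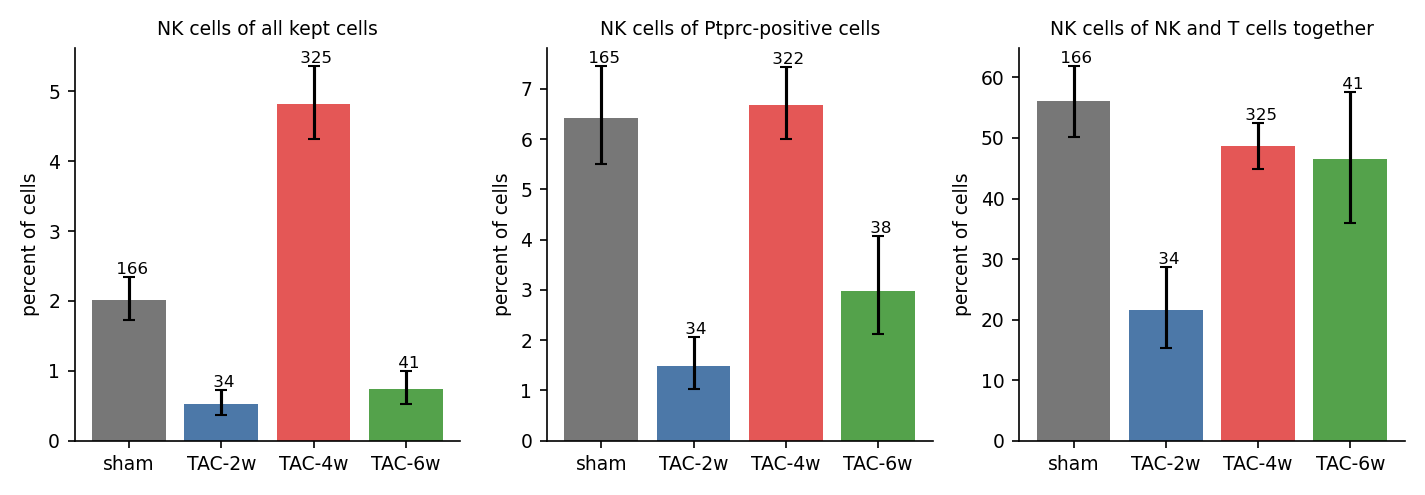
NK cells as a percent of kept cells, of Ptprc-positive cells and of NK and T cells together in the 4 libraries; bars start at 0, error bars are exact 95% intervals and the number of NK cells stands above each bar. TAC-4w is highest of kept cells at 4.82%, and TAC-2w is lowest in all 3 panels.

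Gene levels inside the NK cells were compared with sham over the summed UMIs of each library. All genes of the rule were left out: Ncr1, Klrb1c, Klre1, the Cd3 genes, Cd79a and the C1q genes. Any other gene was tested where its pooled level would give at least 20 UMIs in the smaller sum, and a change of at least 2-fold was counted. The comparison covered 1504 genes in TAC-2w, 5564 in TAC-4w and 718 in TAC-6w. Of them, 24 (1.6%) were at least 2-fold higher and 85 (5.65%) at least 2-fold lower in TAC-2w. In TAC-4w 254 (4.57%) were higher and 296 (5.32%) lower, and in TAC-6w 29 (4.04%) were higher and 53 (7.38%) lower. The median ratio of all genes tested was 1.03, 1.16 and 0.936 in that order, so a ratio near 1.16 in TAC-4w is the level of a typical gene there. All 3 comparisons share the sham cells. Several of these counts were much lower when the cells with the top doublet scores were left out, as given below under the processing.

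Activating receptors outside the Ly49 family and their adaptors kept within 2-fold of sham among the genes tested. Ly49 receptors, some of which are activating too, are given below with their family. The 14 genes listed include the rule genes Ncr1, Klrb1c and Klre1, which were not among those tested. Of the others, 7 were tested in TAC-2w, 11 in TAC-4w and 5 in TAC-6w, and none was 2-fold higher or lower. Their median ratio was 1.08 in TAC-2w, 1.27 in TAC-4w and 0.894 in TAC-6w. Klrk1, the NKG2D receptor for stress ligands, stood at 741 CPM in sham, 1079 in TAC-2w, 1118 in TAC-4w and 580 in TAC-6w. Its ratio to sham was 1.46 (1.26 to 1.68), 1.51 (1.39 to 1.65) and 0.783 (0.600 to 1.01). Klrc2, which encodes the activating receptor NKG2C, stood at 358, 260, 681 and 320 CPM. Its TAC-4w ratio of 1.90 (1.69 to 2.15) was the nearest in this group to 2-fold among the genes given here. The adaptor chain gene Tyrobp, which signals for activating receptors, was at 2533, 2588, 3059 and 1964 CPM. Fcer1g, another signalling chain, was at 2064, 2157, 2656 and 2232 CPM and within 1.29-fold of sham throughout.

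Inhibitory receptors outside the Ly49 family were likewise near sham at TAC-2w and TAC-4w. Of 9 genes, 4, 5 and 3 were tested, with a median ratio of 1.2, 1.25 and 0.705 in TAC-2w, TAC-4w and TAC-6w. Klrd1, the CD94 chain that pairs with NKG2 receptors, stood at 909, 964, 1367 and 640 CPM from sham to TAC-6w. Klrg1, an inhibitory receptor of mature NK cells, stood at 200, 247, 154 and 77.9 CPM. At 0.390 times sham in TAC-6w (0.176 to 0.755, from 9 UMIs) it was the only tested gene of the list past 2-fold.

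The Ly49 receptors showed the plainest contrast between TAC-6w and the other libraries. In TAC-2w, 5 of 11 were tested and none was past 2-fold, with a median ratio of 1.06. In TAC-4w, 7 were tested, all 7 were above sham and none was past 2-fold, with a median of 1.33. In TAC-6w, 5 were tested, all 5 were below sham and 3 were at least 2-fold lower, where 7.38% of all genes tested were. The median was 0.428 against 0.936 for all genes tested. Klra4 stood at 650 CPM in sham, 691 in TAC-2w, 964 in TAC-4w and 182 in TAC-6w, 0.280 times sham (0.172 to 0.431). Klra9 stood at 546, 577, 727 and 234 CPM, 0.428 times sham in TAC-6w (0.280 to 0.630). Klra3 stood at 237, 180, 330 and 77.9 CPM, 0.328 times sham in TAC-6w (0.148 to 0.633). The remaining pair fell short of 2-fold: Klra8, the activating Ly49H, was at 537, 603, 692 and 346 CPM, and Klra7 at 336, 555, 425 and 225 CPM. Among the cells that held Gzma, the TAC-6w ratios of Klra8 and Klra7 were 1.09 and 1.16, above sham. Klra5 stood at 29.7, 39.6, 6.52 and 51.9 CPM, on 30, 9, 11 and 6 UMIs from 5, 1, 4 and 2 cells, so no direction is read from it. It was below the limit for testing in all 3 comparisons. Klra17 had no UMI in the NK cells of any library.

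Counted cell by cell at equal depth, the difference took the same form. Each NK cell with at least 1000 UMIs was thinned to 1000 UMIs. This left 165 cells in sham, 34 in TAC-2w, 323 in TAC-4w and 39 in TAC-6w. The mean number of genes and the share with 3 or more are means over 100 draws. Shares of cells with none or with any are exact expected values over all draws. The mean number of Ly49 genes detected per cell was 1.58 in sham, 1.68 in TAC-2w, 1.77 in TAC-4w and 0.997 in TAC-6w. No Ly49 gene was detected in 20.6% of cells in sham (14.7 to 27.6), 24.3% in TAC-2w (11.3 to 42.0), 13.2% in TAC-4w (9.74 to 17.4) and 39.4% in TAC-6w (24.2 to 56.3). Cells with 3 or more made up 22.1%, 28.7%, 25.1% and 7.38%. Without thinning, the cells with none made up 7.83%, 17.6%, 5.23% and 26.8%, and the means were 2.63, 2.47, 2.75 and 1.51. At the same thinned depth any Ly49 gene was found in at most 0.620% of B cells and 4.04% of T cells of a library.

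**Figure D2:**
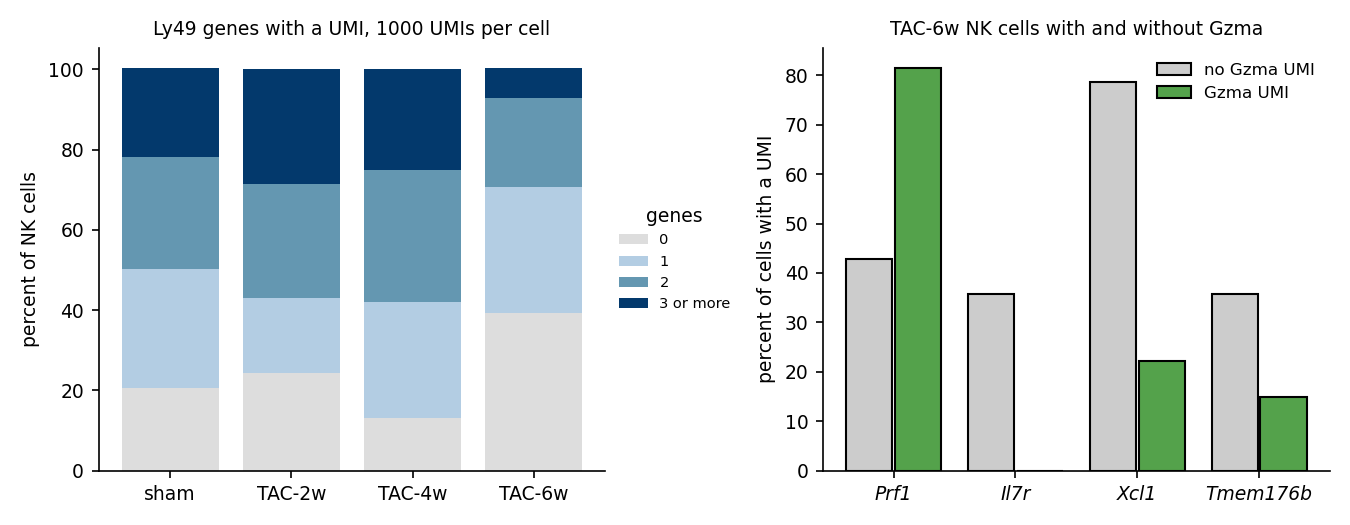
Left, NK cells of each library split by the number of Ly49 genes detected after thinning to 1000 UMIs, as a stacked percent of cells; right, NK cells of TAC-6w without and with a Gzma UMI, as the percent that held Prf1, Il7r, Xcl1 and Tmem176b. TAC-6w has the most cells with no Ly49 gene (39.4%) and the fewest with 3 or more (7.38%).

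The cytotoxic genes stayed mostly within 2-fold of sham. Of 15 listed, 11, 11 and 8 were tested in TAC-2w, TAC-4w and TAC-6w, with medians of 0.987, 1.2 and 0.757 against 1.03, 1.16 and 0.936 for all genes tested. At TAC-4w the group thus stood at the level of a typical gene. A single gene passed 2-fold in any of them, Gzmb in TAC-6w. Gzma, the most abundant, stood at 11678 CPM in sham, 10569 in TAC-2w, 14051 in TAC-4w and 6230 in TAC-6w. Its ratio to sham was 0.905 (0.866 to 0.946), 1.2 (1.18 to 1.23) and 0.533 (0.494 to 0.575). Gzmb, the protease that triggers death in the target cell, stood at 1028, 1131, 1125 and 381 CPM, 0.370 times sham in TAC-6w (0.267 to 0.501). Prf1, the pore former, stood at 1027, 990, 1413 and 692 CPM, 0.674 times sham in TAC-6w (0.530 to 0.846). Nkg7, a granule membrane protein gene, moved less, at 3100, 2998, 3893 and 2804 CPM. Fasl, the death receptor ligand, went against the granule genes at TAC-6w, with 144, 211, 262 and 286 CPM and a TAC-6w ratio of 1.98 (1.31 to 2.90), on 33 UMIs and so below the limit for testing. TAC-6w was thus the lowest library for Gzma, Gzmb, Prf1 and Nkg7, but not for every gene of the list. Ctsw, a protease of killer lymphocytes, stood at 425, 519, 582 and 459 CPM, and Srgn, the granule proteoglycan, at 876, 951, 774 and 943 CPM.

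The secreted signals parted TAC-4w from the rest. Of 12 cytokine and chemokine genes, 7 were tested in TAC-4w and 4 were at least 2-fold lower, where 5.32% of all genes tested were. Their median was 0.415 against 1.16 for all genes tested. None of 6 tested in TAC-2w (median 1.19) or of 5 in TAC-6w (median 0.879) was past 2-fold. Ifng, the main macrophage-activating cytokine of NK cells, stood at 391 CPM in sham, 423 in TAC-2w, 66.4 in TAC-4w and 424 in TAC-6w. The TAC-4w level was 0.170 times sham (0.137 to 0.210), and TAC-2w and TAC-6w were within counting error of sham. Xcl1, which draws cross-presenting dendritic cells, stood at 1092, 1453, 266 and 1930 CPM, with a TAC-4w ratio of 0.244 (0.218 to 0.272) and a TAC-6w ratio of 1.77 (1.52 to 2.04). Ccl3, a chemokine for monocytes and lymphocytes, stood at 1022, 1347, 258 and 528 CPM. Ccl4, its close relative, stood at 3230, 6203, 1340 and 2838 CPM, with ratios of 1.92, 0.415 and 0.879. Ccl5 was the most abundant and stayed within 2-fold, at 22700, 17868, 19382 and 15921 CPM. The genes past 2-fold lower at TAC-4w were thus Ifng, Xcl1, Ccl3 and Ccl4, and Ccl5 was not among them.

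The same genes were lower in the T cells of TAC-4w. The TAC-4w ratio to sham in T cells was 0.303 for Ifng, 0.329 for Xcl1, 0.322 for Ccl3 and 0.421 for Ccl4, against 0.170, 0.244, 0.253 and 0.415 in NK cells. Whether NK and T cells differ in this could not be tested with 1 library a condition. The TAC-4w ratio of Gzma was 1.2 in NK cells and 0.378 in T cells, a difference that was not tested either.

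**Figure D3:**
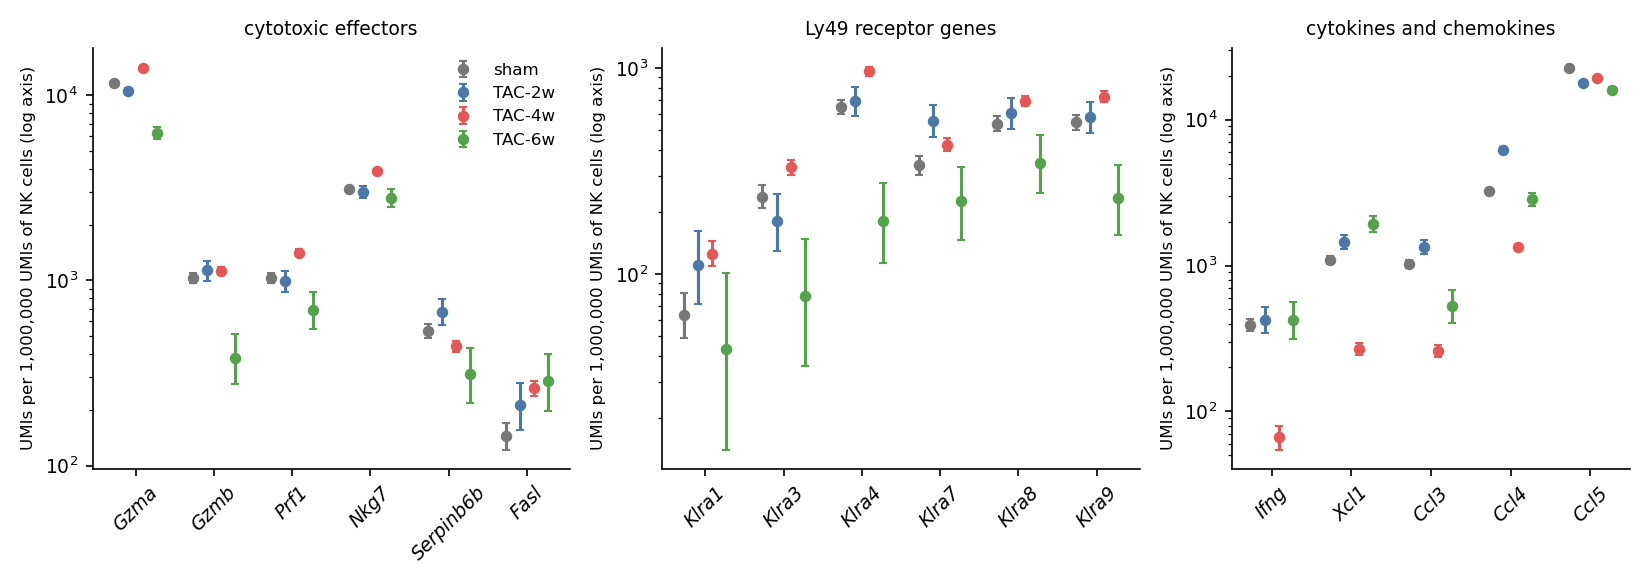
Levels in NK cells of cytotoxic genes, Ly49 receptors and cytokine or chemokine genes in the 4 libraries, as CPM on a log axis; points are summed levels and bars exact 95% Poisson intervals. Ifng, Xcl1, Ccl3 and Ccl4 are lowest in TAC-4w, while Gzma, Gzmb, Prf1 and Klra4 are lowest in TAC-6w.

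Immediate early genes, which are switched on within minutes of stimulation and also during tissue dissociation, were lower in TAC-4w as a group. All 15 were tested, all 15 were below sham and 9 were at least 2-fold lower, where 5.32% of all genes tested were. The median was 0.463. In TAC-2w 1 of 15 was 2-fold lower (median 0.858), and in TAC-6w 1 of 14 was 2-fold higher (median 0.887). Of all genes tested, 5.65% were that much lower in TAC-2w and 4.04% higher in TAC-6w. Fos stood at 1215, 1241, 255 and 623 CPM from sham to TAC-6w, and Egr1 at 595, 401, 94.9 and 978 CPM. Single cells weighed on Egr1: 80.2% of its UMIs in TAC-2w and 51.3% in TAC-6w came from 1 cell, and without the top cell of each library its ratio moved from 0.673 to 0.173 in TAC-2w and from 1.64 to 1.00 in TAC-6w. Nr4a1, which follows receptor signalling in lymphocytes, stood at 258, 194, 46.2 and 562 CPM, 0.179 times sham in TAC-4w (0.137 to 0.232) and 2.18 times in TAC-6w (1.63 to 2.87). Without the top cell of each library the TAC-6w ratio was 1.89, below 2-fold. In the T cells of TAC-4w 5 of 15 were at least 2-fold lower, with a median of 0.721, where 3.65% of 4764 genes tested were. In its B cells 7 of 15 were, with a median of 0.524, where 3.77% of 5038 genes tested were. Low values of this group were therefore also seen in the other lymphocytes of TAC-4w. Of the heat shock genes, 1 of 9 tested was lower in TAC-2w, 3 of 10 in TAC-4w and 1 of 7 in TAC-6w, and none was higher. Over all genes tested in NK cells, 5.65%, 5.32% and 7.38% were at least 2-fold lower. In TAC-4w 2 of 10 heat shock genes were also lower in T cells and 4 of 10 in B cells. Hspa1a, an inducible chaperone, stood at 426, 136, 13.6 and 208 CPM in NK cells. The part that handling of the tissue had in these levels was not tested.

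The summed levels of the tested cell cycle genes were below sham in every TAC library. Of 15, 6 were tested in TAC-2w and 2 were at least 2-fold lower (median 0.546), 10 in TAC-4w with 5 lower (median 0.501), and 2 in TAC-6w with 1 lower (median 0.485). Mki67, the proliferation marker, stood at 129 CPM in sham, 70.4 in TAC-2w, 55.7 in TAC-4w and 26.0 in TAC-6w. A few cells carried it: 32.3% of its UMIs in sham came from 1 of 16 cells, and 69.1% in TAC-4w from 1 of 9. Cells with at least 3 cell cycle genes detected made up 47.0% of the NK cells in sham, 50% in TAC-2w, 40.3% in TAC-4w and 12.2% in TAC-6w at unequal depth, so by cells TAC-2w was not below sham. The TAC-2w order turned when each cell was weighted equally, where the Mki67 ratio became 1.08. In the T cells of TAC-4w none of the cell cycle genes was 2-fold lower and their median was 1.08. Of the interferon-stimulated genes, 2 of 6 tested were lower in TAC-2w, 4 of 12 in TAC-4w and 2 of 3 in TAC-6w, and none was higher. Ifi27l2a was lower in all 3, at 814, 387, 49.8 and 337 CPM. Of its UMIs, 47.7% in TAC-2w and 48.7% in TAC-6w came from 1 cell. Without the top cell of each library its ratio was lower still, at 0.286 in TAC-2w and 0.249 in TAC-6w. Its TAC-2w ratio of 0.476 became 1.07 without the top doublet scores. The MHC class I genes that NK receptors read stayed near sham inside these cells, with no gene past 2-fold in 9, 12 and 8 tested, and B2m at 2383, 2914, 2356 and 2561 CPM.

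Trafficking and adhesion genes stood above sham in TAC-4w. Of 15 tested there, 13 were above sham and 2 were at least 2-fold higher, where 4.57% of all genes tested were. The median was 1.62 against 1.16 for all genes tested. Cxcr4, the receptor for the marrow chemokine CXCL12, stood at 69.2 CPM in sham, 132 in TAC-2w, 184 in TAC-4w and 190 in TAC-6w, 2.66 times sham in TAC-4w (2.05 to 3.5). In T cells the TAC-4w ratio of Cxcr4 was 1.59. The list was also above sham in the other lymphocytes of TAC-4w. In T cells 4 of 13 tested were at least 2-fold higher (5.02% of all genes tested), with a median of 1.45, and in B cells 2 of 9 (4.07%), with a median of 1.56. The integrin genes Itgam, Itga2 and Itga4 were at 1.95, 1.89 and 1.81 times sham in TAC-4w. No trafficking gene was past 2-fold among 9 tested in TAC-2w and 7 in TAC-6w. S1pr5, a receptor for exit from tissue, stood at 87.0, 57.2, 143 and 8.65 CPM, the last from 1 UMI.

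Cytokine receptors were also above sham in TAC-4w, with 8 of 9 tested above it and a median of 1.54. Ifngr1, the interferon gamma receptor, was past 2-fold, at 451 CPM in sham, 542 in TAC-2w, 919 in TAC-4w and 545 in TAC-6w. Its TAC-4w ratio was 2.04 (1.83 to 2.27) in NK cells and 0.845 in T cells, where the list's median was 1.3. Il2rb, the receptor chain shared by interleukins 2 and 15, stood at 482, 621, 676 and 744 CPM and was above sham in all 3 TAC libraries.

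Of 14 transcription factors, 8 were tested in TAC-2w, 13 in TAC-4w and 5 in TAC-6w, and 1 passed 2-fold in each of the last 2. Eomes stood at 170 CPM in sham, 154 in TAC-2w, 216 in TAC-4w and 77.9 in TAC-6w, and Tbx21 at 93.9, 114, 130 and 182 CPM. The TAC-6w ratios of this pair lay on opposite sides of sham, 0.458 for Eomes (0.206 to 0.890, from 9 UMIs) and 1.93 for Tbx21 (1.14 to 3.13, from 21 UMIs). Both were below the limit for testing there. Zeb2, a factor of terminal maturation, stood at 330, 167, 455 and 156 CPM and was the factor past 2-fold in TAC-6w (0.472 times sham, 0.276 to 0.757). Prdm1, which encodes Blimp-1, was the factor past 2-fold in TAC-4w, at 33.6, 30.8, 74.1 and 86.5 CPM.

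Genes of late NK maturation followed the Ly49 receptors at TAC-6w. Of 10 listed, 6 were tested there, all 6 were below sham and 3 were at least 2-fold lower, where 7.38% of all genes tested were. The median was 0.564. The 3 past 2-fold were Gzmb, Klrg1 and Zeb2, which other lists hold too. In TAC-4w 9 of 10 tested were above sham with a median of 1.37, and in TAC-2w 4 of 7 were above it. Cma1, a chymase gene of the list, was the 1 gene past 2-fold in TAC-2w, at 296, 119, 297 and 234 CPM. Early maturation genes moved both ways: of 9 tested in TAC-4w Emb was higher and Xcl1 and Thy1 were lower, while in TAC-6w 3 were tested and Cd7 was higher. Of the genes of type 1 innate lymphoid cells and tissue residency, 2, 3 and 2 were tested and none was past 2-fold. Il7r, the interleukin 7 receptor, stood at 16.8, 8.80, 21.3 and 86.5 CPM, and Emb at 38.6, 35.2, 130 and 147 CPM.

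**Figure D4:**
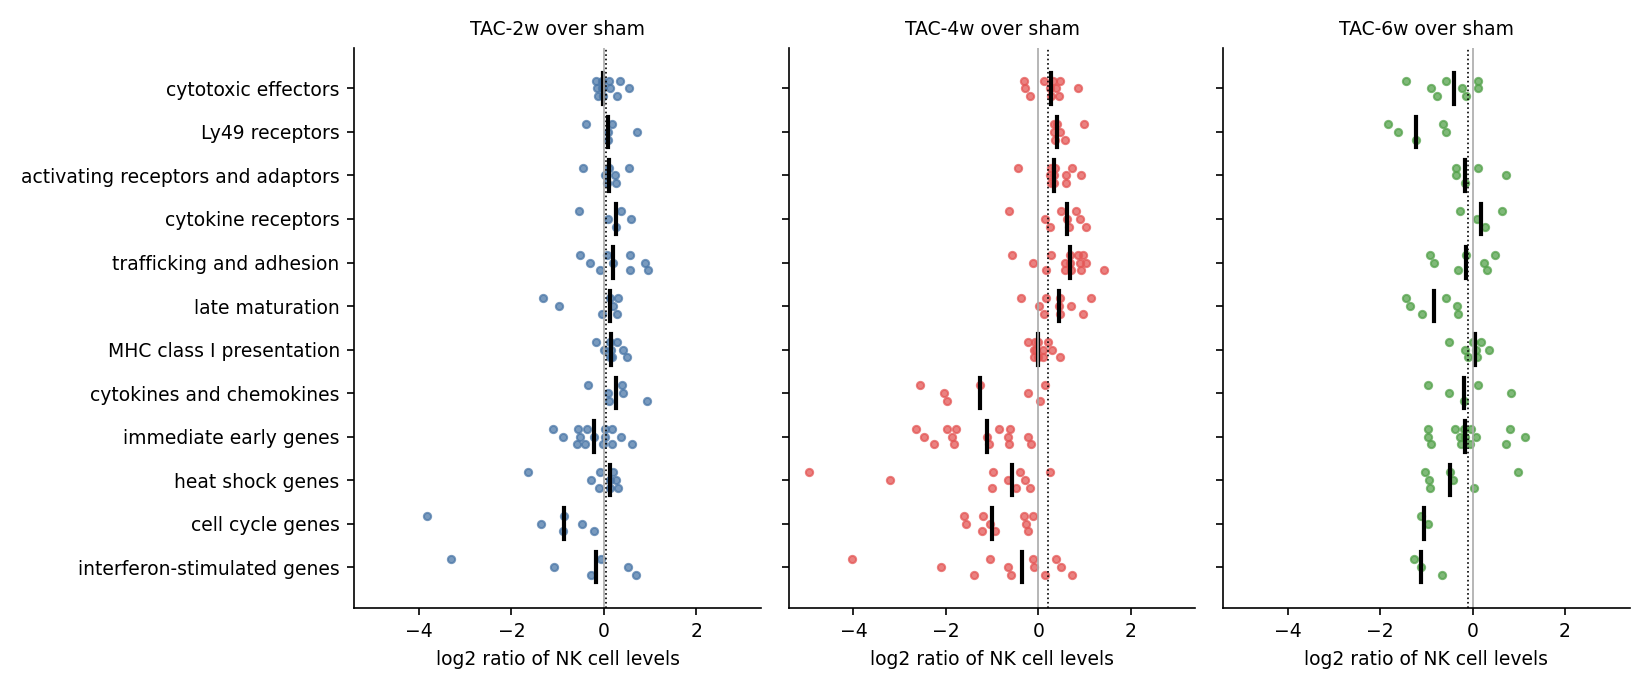
Ratio to sham on a log2 axis of each gene tested, by gene list, in NK cells of TAC-2w, TAC-4w and TAC-6w; each point is 1 gene, the black bar is the list median and the dotted line the median of all genes tested. Ly49 and late maturation genes lie below the line in TAC-6w, and most immediate early and cytokine genes in TAC-4w.

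In TAC-6w a larger part of the NK cells held no Gzma. Such cells numbered 7 of 166 in sham (4.22%), 4 of 34 in TAC-2w (11.8%), 5 of 325 in TAC-4w (1.54%) and 14 of 41 in TAC-6w (34.1%). The split was made after the values were seen, so it is a description. Of the 14 in TAC-6w, 5 held Il7r against 0 of the 27 with Gzma, and 11 held Xcl1 against 6 of 27. Tmem176b was in 5 of 14 and 4 of 27, Prf1 in 6 of 14 and 22 of 27, and Eomes in 0 of 14 and 8 of 27. A Ly49 gene was detected in 42.9% of the 14 and 88.9% of the 27. The 14 were the deeper group, with a median of 3080.5 UMIs against 1699, and 6 of them held just 2 marker UMIs against 1 of the 27. In sham Il7r was in 3 of 7 cells without Gzma and 1 of 159 with it, Tmem176b in 6 of 7 and 13 of 159, and Eomes in 0 of 7 and 80 of 159. The name NK cell is therefore less certain for cells without Gzma, and what they are was not tested. The TAC-6w levels above include the 14.

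With only the cells that held Gzma in each library, the TAC-6w list medians moved both ways. The Ly49 median became 0.877, that of late maturation 1.04 and that of cytotoxic genes 0.895, each nearer to sham. Xcl1, above sham in all NK cells of TAC-6w, turned to 0.210 times sham, and Prf1 to 1.04. The cytokine median was 0.371, further from sham than in all NK cells. The median over all genes tested in these cells is not given here, so the list medians stand without that reference. Gzma itself differed in TAC-6w and went with Ly49 detection, so these values follow in part from the choice of cells and nothing is drawn from them.

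NK cells were set beside T cells of the same library. T cells had no UMI of the NK markers and NK cells none of the Cd3 genes, so cells with both were in neither group. Of such cells with 2 or more marker UMIs, 68.3% held Gzma in sham, 19.2% in TAC-2w, 71.7% in TAC-4w and 36.4% in TAC-6w. The differences below may therefore follow in part from how both groups were chosen. Over 6739 genes with at least 100 UMIs in NK and T cells together, 153 (2.27%) were at least 2-fold higher and 142 (2.11%) at least 2-fold lower in NK cells in 4 of 4 libraries. With 4 libraries no two-sided exact test can pass 0.05, so none was made. Among listed genes with as many UMIs, 6 of 6 Ly49 genes were higher in this way, 8 of 13 cytotoxic genes, 7 of 10 late maturation genes, 6 of 11 activating genes and 4 of 9 cytokine genes. Gzma stood at 349, 125, 132 and 58.1 CPM in the T cells from sham to TAC-6w, and Prf1 at 36.4, 18.9, 27.7 and 11.6 CPM. Klra4 had no UMI in the T cells of any library. Eomes, Tbx21, Zeb2 and Irf8 were the factors higher in NK cells, and Tcf7 and Ikzf2, which mark naive and regulatory T cells among others, were lower. Gzmk was the 1 granzyme lower in NK cells, and the lymphotoxin gene Ltb was lower too. No immediate early, heat shock or MHC class I gene was past 2-fold in all 4.

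The genes with the largest ratios to sham were mostly not NK cell genes. In TAC-2w 9 of the 10 highest drew over 80% of their UMIs from 1 cell, among them 99.2% for Tagln and 99.7% for Acta2, both genes of smooth muscle. The remaining gene, Samsn1, an adaptor of lymphocytes, stood at 102 CPM in sham and 291 in TAC-2w, 2.85 times sham (2.06 to 3.92), in 20 cells. In TAC-6w the highest was Mt1, a metallothionein gene, at 7.45 times sham (6.41 to 8.66) in 11 cells, with 59.8% of its UMIs in 1 cell and 4.31 times sham without the top cell of each library. It was not higher in the T cells, at 407 against 424 CPM. In the same library 98.6% of the UMIs of Cd74 and all of those of H2-Ab1, both of MHC class II presentation, came from 1 cell each. Rps28 and Rps29, of the ribosome, were 2.67 and 2.57 times sham there, and were also higher than sham in the T cells and in all kept cells. In TAC-4w the highest were led by Lcn2 and Acod1, with no UMI in sham, and S100a8 (228 times sham), S100a9 (174) and Retnlg (147), which neutrophils express. These genes were also higher over all kept cells of TAC-4w, where S100a9 stood at 18587 CPM against 523 in sham.

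Several of the lowest genes are also not of NK cells. In TAC-2w Dpep1, Fbln2, Gm12840, Igfbp6 and Retnla had no UMI. In TAC-4w Ifi205 had none and Nppa and Myh6, of the heart muscle, stood at 0.593 and 1.19 CPM against 93.9 and 81.1 in sham. In TAC-6w the histone gene Hist1h1b had none against 319 CPM in sham, and Hbb-bs stood at 60.6 against 7797 CPM.

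RNA of other cells differed between the libraries and was given for the whole marker lists. Red cell genes, led by Hbb-bs, summed to 14484 CPM in the NK cells of sham (8680 without the cell that held the most), 691 in TAC-2w, 693 in TAC-4w and 112 in TAC-6w, with 19969, 297, 10490 and 519 CPM in the B cells. Fibroblast genes summed to 7514, 1285, 1205 and 6507 CPM in NK cells, and without that cell to 6544, 343, 641 and 4225. Neutrophil genes summed to 70.2, 26.4, 2018 and 2933 CPM, and without the cell that held the most of them to 17.2, 18.2, 1232 and 426. A neutrophil gene was detected in 87.1% of the NK cells of TAC-4w and 79.3% of its B cells, against 10.8% and 6.88% in sham. This signal was thus spread over cell types within TAC-4w. Macrophage genes summed to 1273, 1079, 261 and 2258 CPM, and without the cell that held the most to 1143, 476, 145 and 1212. Cardiomyocyte genes summed to 285, 273, 20.2 and 26.0 CPM. B cell genes summed to 613, 145, 268 and 1938 CPM, of which 94.2% in TAC-6w came from 1 cell. Platelet genes summed to 65.3, 35.2, 260 and 69.2 CPM. Endothelial genes summed to 292, 74.8, 432 and 242 CPM, and without the cell that held the most to 135, 63.5, 238 and 46.6. Basophil and mast cell genes summed to at most 5.93 CPM, and dendritic cell genes to 2.97, 0, 0 and 138 CPM, the last from 1 cell. The part of this RNA in the ratios above was not tested.

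NK cell genes were also read in the 4 heart sections, which the rule did not use. A spot of a section covers several cells, and in such a mixture fewer cells of a type and less RNA per cell cannot be told apart. The sections held 1676 spots over tissue in sham, 2063 in TAC-2w, 1228 in TAC-4w and 2193 in TAC-6w, with 25996378, 48754396, 31942372 and 48288659 UMIs. By the labels the sham and TAC-2w sections shared a batch, and TAC-4w and TAC-6w had their own, so batch and time cannot be told apart for them.

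The summed signal was sparse, and higher in the later sections. Ncr1, Klrb1c and Klre1 together had 3 UMIs in sham, 11 in TAC-2w, 32 in TAC-4w and 38 in TAC-6w, or 0.115, 0.226, 1.00 and 0.787 CPM of the section. The ratio to sham was 1.96 (0.516 to 10.9), 8.68 (2.72 to 44.3) and 6.82 (2.16 to 34.5). Ncr1 alone had 1, 2, 1 and 4 UMIs, too few to show a difference. Gzma had 11, 24, 76 and 144 UMIs, or 0.423, 0.492, 2.38 and 2.98 CPM, with ratios of 1.16 (0.549 to 2.63), 5.62 (2.97 to 11.7) and 7.05 (3.82 to 14.4). Gzmb had 0, 6, 39 and 39 UMIs, and Prf1 had 6, 6, 14 and 25, with ratios of 1.90 (0.686 to 6.03) in TAC-4w and 2.24 (0.898 to 6.69) in TAC-6w. For the marker sum and Gzma, TAC-4w and TAC-6w thus stood above sham by more than counting error, and TAC-2w did not.

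T cell and other leukocyte genes were also higher in the same sections. Nkg7, which T cells share, stood at 0.769, 0.472, 3.82 and 5.18 CPM, and Ccl5 at 2.50, 2.85, 21.7 and 22.7. Cd3e stood at 0.192, 0.103, 0.783 and 1.68 CPM and Ptprc at 4.19, 3.2, 8.77 and 7.87. The B cell gene Cd79a was not higher, at 0.500, 0.246, 0.532 and 0.538 CPM. The later sections therefore held more RNA of T cell and general leukocyte genes beside that of NK cells. Il15, the growth factor of NK cells, stayed within 1.32 times sham, at 13.6, 18, 14.7 and 12.9 CPM. The order of the sections was not that of the cell libraries, in which the NK share of TAC-6w was below sham.

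Spots with a UMI of the 3 NK markers numbered 3, 11, 27 and 30, and in TAC-4w and TAC-6w they held several leukocyte genes more often than other spots. In TAC-4w, Ccl5 was detected in 20 of 27 such spots (74.1%) and in 309 of the other 1201 (25.7%), and in TAC-6w in 21 of 30 (70%) and 533 of 2163 (24.6%). Gzma was detected in 18.5% against 3.5% in TAC-4w and in 20% against 3.88% in TAC-6w. Ptprc was detected in 48.1% against 17.7% and in 36.7% against 13.4%, and the macrophage gene Cd68 in 44.4% against 24.2% and 33.3% against 15.7%. For Cd68 the intervals overlapped in both sections, at 25.5 to 64.7 against 21.8 to 26.8 in TAC-4w. None of these differences was tested. Cd3e was in 1 of 27 marker spots in TAC-4w (3.70% against 1.83%), 4 of 30 in TAC-6w (13.3% against 3.28%) and 0 of 11 in TAC-2w. The marker spots were also the deeper ones, with a median of 32041 against 27443 UMIs in TAC-4w and 30222.5 against 20016 in TAC-6w, and the part of depth in these shares was not tested.

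**Figure D5:**
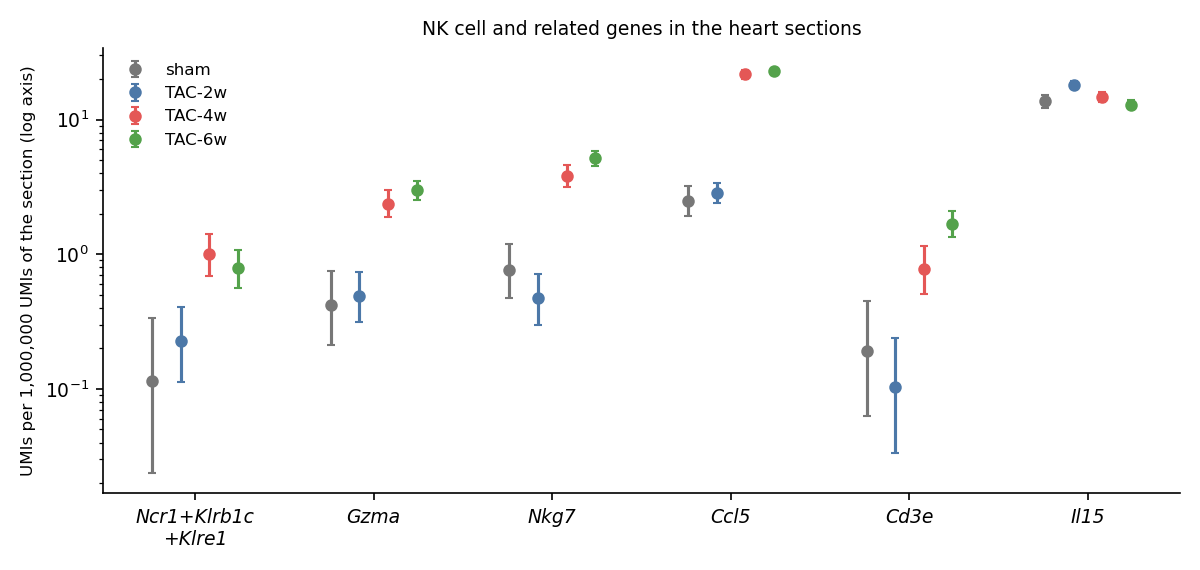
Levels in the 4 heart sections of the NK marker sum (Ncr1, Klrb1c and Klre1), Gzma, Nkg7, Ccl5, Cd3e and Il15, as CPM on a log axis; points are section totals and bars exact 95% Poisson intervals. All but Il15 are higher in TAC-4w and TAC-6w than in sham, with Gzma at 2.38 and 2.98 CPM against 0.423.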

How the data were processed

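The authors deposited, for each library, a matrix of UMI counts per gene and cell barcode, and for each section the same per spot. The submitters' processing notes name Cell Ranger 7.0.0, Space Ranger 1.3.1 and mm10, while the matrix headers name Cell Ranger 6.0.0 and Space Ranger 1.2.0. The labels describe isolation of nuclei and the study's methods a suspension of cells, so what was loaded is uncertain, and batches rest on the labels alone. The counts were raw, and the cell filters were those of the study.

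The NK cell rule, gene lists and named genes were chosen with earlier results of these data known. Every listed gene could be named, and beyond them the 10 highest and 10 lowest ratios to sham in each comparison. So could the 20 genes outside the rule that stood highest over all other kept cells. Counts were summed per library and given per 1000000 UMIs. Intervals were exact: Clopper-Pearson for shares, Poisson for levels and conditional binomial for ratios. They were checked on simulated counts. Doublets were kept, and an alternative left out the top 3.2% of Scrublet scores (scanpy 1.11.5) in each library. Analyses used Python 3.11.15, numpy 2.4.6, scipy 1.17.1 and pandas 2.3.3. Promoters came from RefSeq. Some results that name withheld items are not reported here.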

Additional observations from a re-analysis of the deposited data

Results flagged for a closer look

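Several values lay on opposite sides of the same sham library in the 3 TAC libraries, and none of these differences was tested, since each condition had 1 library. The NK cell share of the kept cells was 0.259 times sham in TAC-2w, 2.39 times in TAC-4w and 0.364 times in TAC-6w.

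The summed level of the Ly49 receptors was 1.14 times sham in TAC-2w, 1.36 times in TAC-4w and 0.489 times in TAC-6w. Activating receptors and adaptors, which include the rule genes, summed to 1.09, 1.37 and 0.912 times sham, and inhibitory receptors to 1.16, 1.35 and 0.756 times. For the cytotoxic effectors the ratio was 0.960 in TAC-2w, 1.19 in TAC-4w and 0.649 in TAC-6w. The median ratio of all genes tested was 1.03, 1.16 and 0.936 in these libraries, so 1.19 is about that of a typical gene. For the late maturation genes it was 1.27 in TAC-4w and 0.594 in TAC-6w. The NK cells of TAC-6w were also the shallowest. The rule genes among the activating receptors chose the cells, so that list's values are a description.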

How the results depend on the processing

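The NK cell share of TAC-4w over sham became 2.99 after thinning every cell to 1000 UMIs, 3.16 with a mitochondrial share under 5%, 1.04 of Ptprc-positive cells and 0.340 of NK, T and B cells, where it reversed. That of TAC-6w became 0.139 of NK, T and B cells. In both cases the denominator's B cells differed between libraries.

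Counts of genes at least 2-fold higher and lower changed under several settings. With 5 UMIs expected in place of 20 they were 163 and 524 in TAC-2w, 810 and 939 in TAC-4w and 107 and 441 in TAC-6w. With NK cells thinned they were 0 and 6, 15 and 25, and 10 and 15. Without the top Scrublet scores they were 10 and 34 in TAC-2w, with 101 lower in TAC-4w. In TAC-6w the higher count was 17 with at least 3 marker UMIs and 11 among cells with a Gzma UMI. Without thinning, cells with no Ly49 gene made up 7.83% in sham and 5.23% in TAC-4w. The causes were not tested. The section ratios kept their direction with mitochondrial and rRNA genes out of the total, and the count of cytotoxic genes higher than in T cells was 8 with 3 marker UMIs and 7 without the top Scrublet scores, against 8.

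Of 3527 alternative values of 441 gene ratios, 470 moved past their interval and 47 reversed. In TAC-2w, without the top Scrublet scores, the ratio of Ifi27l2a became 1.07, Acta2 0.301, Tm4sf1 0.435, Ccn2 0.301, Nupr1 0, Fmo2 0.869, Cald1 0.373 and Lpp 0.711. Without the cell that held the most of each gene, Acta2 became 0.376, Tm4sf1 0.264, Ccn2 0.142, Nupr1 0, Dstn 0.561, Fmo2 0.162, Cald1 0.164, Lpp 0.604 and Fabp4 1.00. Mki67 became 1.08 as a mean over cells and 1.07 thinned, Lyz2 1.06 with 3 marker UMIs, and Fabp4 1.25 with Gzma.

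In TAC-4w, without the top Scrublet scores, as a mean over cells and thinned, Gzmb became 0.904, 0.943 and 0.947, and H2-K1 0.977, 0.983 and 1.00. Klrb1b became 1.00 without the top Scrublet scores. In TAC-6w, among cells with Gzma, Tyrobp became 1.04, Klra7 1.16, Klra8 1.09, Prf1 1.04, Xcl1 0.210, Cd74 0.0973, H2-Eb1 0.108 and H2-Ab1 0. With 3 marker UMIs Cd74 became 0.200, H2-Eb1 0.247 and H2-Ab1 0. Without the top cell they became 0.0854, 0.129 and 0, and H2-Ab1 as a mean over cells 0.966. Without the top Scrublet scores Col1a2 became 2.39, Col3a1 1.14, Gsn 1.92 and Mfap5 1.11.

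The Gzma, top-cell, Cd79a and T cell alternatives were chosen after seeing the data. No paired analysis of the conditions was possible because the labels give each condition 1 library.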

Other observations

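Cells with 2 or more UMIs of Ncr1, Klrb1c and Klre1 that also held a Cd3 UMI, which the rule leaves out, numbered 41 in sham, 26 in TAC-2w, 53 in TAC-4w and 11 in TAC-6w. They were 19.0%, 41.3%, 12.5% and 20% of the cells with that many marker UMIs. The T cell receptor gene Trac was detected in 34.1%, 38.5%, 66.0% and 18.2% of them, against 4.82%, 2.94%, 6.46% and 2.44% of the NK cells. Gzma was detected in 68.3%, 19.2%, 71.7% and 36.4% and Prf1 in 63.4%, 61.5%, 67.9% and 45.5%. These shares rest on few cells, above all in TAC-2w and TAC-6w.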
